A study of Mus musculus with 11 samples.

Results

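The loss of a Csf1r copy was examined in microglia that already lacked a Csf2 copy, by comparing the 2 Dhet libraries with the 3 Csf2_het libraries of a series of 11. Genes entered the comparison when their normalized count averaged at least 10 over the 11 libraries, which kept 13223 of 14739 genes. A normalized count is the number of reads of a gene divided by a factor that puts libraries of different depth on 1 scale. Cerebral cells of old C57BL/6 mice were sorted for Tmem119, and their total RNA was sequenced in bulk. Dhet mice carried a deleted copy of Csf1r and of Csf2 (Csf1r+/-; Csf2+/-), and Csf2_het mice carried the Csf2 deletion with both copies of Csf1r. Both groups therefore kept an intact Csf2 copy, so the background was heterozygous and not null. The comparison on the other background, where Csf2 was intact, set 3 Csf1r_het libraries (Csf1r+/-) against 3 WT libraries. The Csf2_het and WT mice were 21 months old, Dhet replicate 1 was 21 months and Dhet replicate 2 was 24 months, and the Csf1r_het mice were 20, 24 and 21 months old.

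Csf1r encodes the tyrosine kinase receptor for CSF-1 and IL-34, which microglia need to survive, and human carriers of inactivating CSF1R mutations develop an adult-onset leukoencephalopathy. Csf2 encodes GM-CSF, a cytokine that promotes the growth and activation of myeloid cells through a receptor made of Csf2ra and Csf2rb chains. The series title names a balance between the receptors for CSF-1 and CSF-2, and the double heterozygote lacks a gene copy in each of these pathways.

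Reads recovered from the normalized counts, summed over the 14739 genes, were 42265873 and 42346453 in Dhet, against 37881618, 53081638 and 33459297 in Csf2_het. Haemoglobin genes took 25.97% and 22.16% of the normalized counts in Dhet, and 32.97%, 18.87% and 40.17% in Csf2_het. Sex-linked transcripts set Dhet replicate 2 off from the rest. Its Y-linked Ddx3y count was 717, while the remaining 10 libraries did not exceed 16.3. Its Xist count was 4.02, while the remaining 10 libraries held 3011 or more. Age and sex-linked expression thus differ within the pair of Dhet libraries, and several results below are given with and without that library. Dhet replicate 1, the only Dhet library left in that case, had the age of the Csf2_het libraries and the highest Xist count of the series, 8151, against 5521, 6850 and 6550 in Csf2_het. The labels do not say that each library came from a separate mouse, so p-values measure the spread between these libraries.

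The cells were checked against markers first. The microglial genes Tmem119 and P2ry12 were abundant in all 5 libraries, and the groups overlapped for both. Tmem119, the marker used for the sort, had 30741 and 23328 normalized counts in Dhet, against 18805, 31939 and 22463 in Csf2_het. P2ry12, the purinergic receptor of resting microglia, had 50949 and 54485 in Dhet, against 48810, 69352 and 60852 in Csf2_het. Defining markers of other cells were present too. The neutrophil gene S100a8 reached 197892 and 248159 normalized counts in Dhet, against 83831, 38023 and 82630 in Csf2_het. Defining markers of neutrophils, monocytes and B cells that were in the table were above 0 in all 5 libraries. The table used here held no row for Mrc1, Lyve1 or Cd163, which define border macrophages.

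Promoter sequences are shown for 2 groups of genes that were higher together in Dhet, replication genes and neutrophil granule genes, with the motif for which each is printed. They are RefSeq sequences of build GRCm38.p6, 250 bases before to 50 bases after the gene start, on the strand of the gene. Capitals in the first pair mark an E2F motif, TTTGGCGC, TTTCCCGC, TTTGCCGC or TTTCGCGC on either strand, and the matches in Mcm6 overlap.
Mcm7 (chr5:138171834-138172133, reverse strand): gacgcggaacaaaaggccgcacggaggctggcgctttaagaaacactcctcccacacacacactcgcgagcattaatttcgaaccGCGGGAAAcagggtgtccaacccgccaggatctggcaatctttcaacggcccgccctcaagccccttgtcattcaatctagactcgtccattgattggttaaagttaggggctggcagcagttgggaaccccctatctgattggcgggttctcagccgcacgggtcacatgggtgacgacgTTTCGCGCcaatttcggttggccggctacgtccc
Mcm6 (chr1:128359656-128359955, reverse strand): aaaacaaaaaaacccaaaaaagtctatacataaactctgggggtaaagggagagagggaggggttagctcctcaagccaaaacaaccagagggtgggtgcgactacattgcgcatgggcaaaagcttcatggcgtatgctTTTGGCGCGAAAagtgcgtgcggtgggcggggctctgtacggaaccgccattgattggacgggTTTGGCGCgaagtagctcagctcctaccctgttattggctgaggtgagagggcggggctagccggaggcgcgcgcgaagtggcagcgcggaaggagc
Capitals in the next pair mark GAGGAAGT on either strand, a sequence bound by PU.1, the transcription factor of myeloid cells.
Mmp8 (chr9:7558179-7558478, forward strand): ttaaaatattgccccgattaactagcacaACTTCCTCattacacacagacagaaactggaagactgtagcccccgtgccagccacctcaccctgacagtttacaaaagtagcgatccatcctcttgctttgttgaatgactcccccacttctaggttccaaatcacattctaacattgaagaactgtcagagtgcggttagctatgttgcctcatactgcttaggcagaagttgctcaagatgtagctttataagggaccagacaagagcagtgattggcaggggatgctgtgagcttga
Elane (chr10:79886062-79886361, forward strand): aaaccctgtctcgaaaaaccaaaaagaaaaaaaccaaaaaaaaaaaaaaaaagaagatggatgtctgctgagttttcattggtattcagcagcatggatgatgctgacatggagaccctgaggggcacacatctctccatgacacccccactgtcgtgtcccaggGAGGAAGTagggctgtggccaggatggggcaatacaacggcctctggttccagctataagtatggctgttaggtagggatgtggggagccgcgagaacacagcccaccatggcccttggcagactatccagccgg
The E2F motif was found in 5 of 19 proliferation genes with a promoter in the RefSeq table (26.3%), against 3.96% of the 9427 promoters of tested genes. The CCAAT box was in 17 of the 19 (89.5%), against 38.9%, and TTTGAA, the cell cycle homology region, in 8 of the 19 (42.1%), against 12.5%. GAGGAAGT was in 5 of 11 neutrophil genes (45.5%), against 3.63% of the promoters of tested genes. The motifs were chosen after the gene groups were seen, and a match describes the letters and not binding.

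Csf1r itself (ENSMUSG00000024621.15, chromosome 18, 61105572 to 61132149, forward strand of mm10) checks the genotype. Its normalized count was 40151 and 30254 in Dhet, against 53873, 58211 and 66762 in Csf2_het. Both Dhet libraries lay below all 3 Csf2_het libraries. The Dhet mean was 59.0% of the Csf2_het mean, a log2 fold change of -0.77 (SE 0.50). The limma test over all genes did not pass (adjusted p = 0.743), and the 2-sided exact permutation test gave p = 0.1, the smallest value that 2 against 3 libraries allow. Csf1r_het libraries held 17017, 40567 and 24022, against 93319, 41261 and 63538 in WT, a log2 fold change of -1.29. The effects on the 2 backgrounds did not differ detectably (interaction 0.53, SE 0.67, limma adjusted p = 0.721). In bulk RNA, fewer cells of a type and less RNA per cell cannot be told apart.

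The other receptors of the family did not pass. Csf2rb, the signalling chain of the GM-CSF receptor, had 1957 and 1701 normalized counts in Dhet, against 1306, 1425 and 1338 in Csf2_het. Both Dhet libraries lay above all 3 Csf2_het libraries (0.43, SE 0.36, limma adjusted p = 0.797). The GM-CSF-binding chain, Csf2ra, had 962 and 1443 in Dhet, against 843, 1091 and 841 in Csf2_het, and the groups overlapped (0.36, SE 0.36). Csf3r, the G-CSF receptor, had 2517 and 3359 in Dhet, against 2432, 2714 and 2049 in Csf2_het (0.29, SE 0.40). For Csf2rb2, Il3ra and the ligand Csf1 the Dhet libraries spanned the Csf2_het libraries or lay partly among them. Csf2rb and Csf2rb2 are close copies, and reads between them may have been split. The ligand genes Csf2, Il34 and Csf3 are not analysed here.

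**Figure D1:**
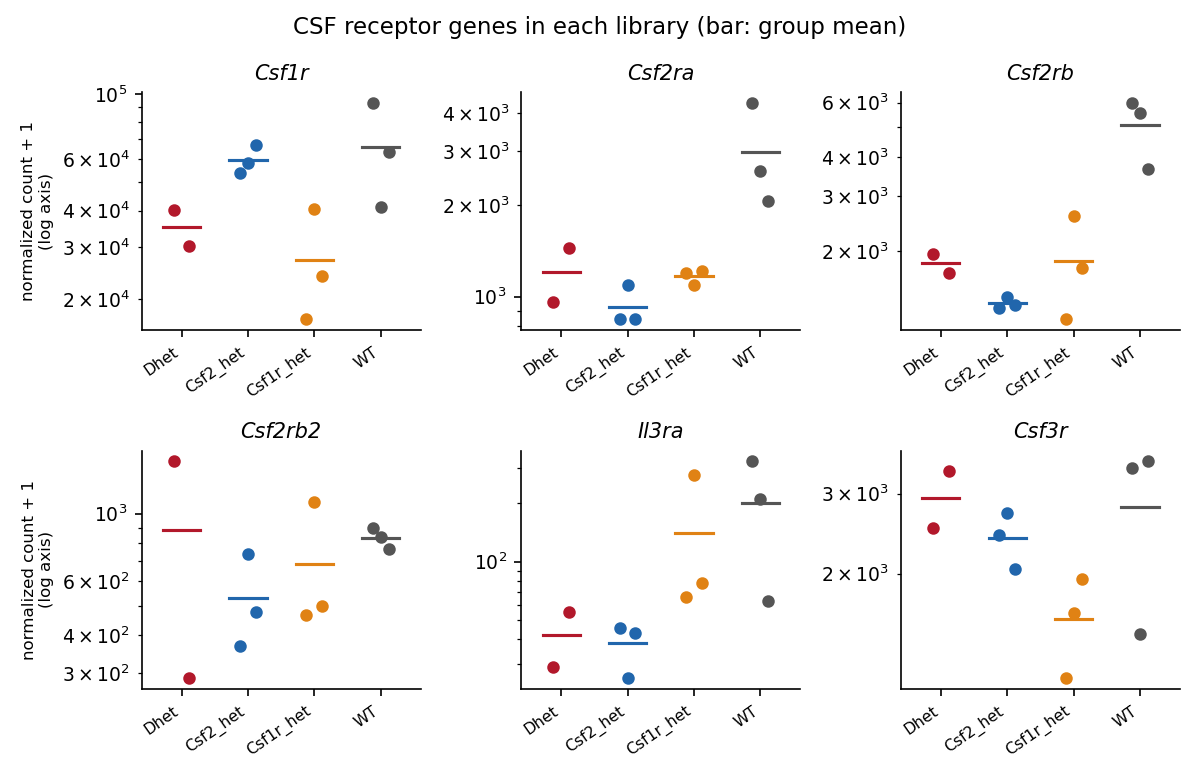
Normalized count plus 1 (log axis) of 6 CSF receptor genes in each library of Dhet, Csf2_het, Csf1r_het and WT, with a bar at the group mean. The Dhet libraries of Csf1r lie at 40151 and 30254, below the 3 Csf2_het libraries, and the other receptors differ less.

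Downstream of the receptor, 24 genes of CSF-1 receptor signalling were measured. At an unadjusted p under 0.05, 1 was higher in Dhet (5.09% of all genes were) and 0 were lower (3.1%). At that threshold this is no more than over all genes. Without overlap, however, 9 were higher (16.7% of all genes were) and 2 were lower (12.9%), and 18 of the 24 had a log2 fold change above 0. The median log2 fold change was 0.33. The median over all 13223 genes was 0.03. The gene that was higher at an unadjusted p under 0.05 was Ptpn6, which encodes the phosphatase SHP-1. It had 5088 and 6620 normalized counts in Dhet, against 3623, 3442 and 3865 in Csf2_het (0.67, SE 0.30, limma adjusted p = 0.595). Among 13 genes of JAK-STAT5 signalling and its SOCS feedback, 0 were higher and 1 was lower at an unadjusted p under 0.05, a single gene in a direction that held 3.1% of all genes. It was Socs2, an inhibitor of cytokine receptor signalling, with 15.8 and 102 normalized counts in Dhet, against 409, 632 and 324 in Csf2_het. Both Dhet libraries lay below all Csf2_het libraries (log2 fold change -3.40, SE 0.85, limma adjusted p = 0.279).

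Across all genes, 3 rose in Dhet against Csf2_het, which is 0.0227% of the genes tested, and 0 fell (0%; limma with Benjamini-Hochberg adjustment at 0.05). At an unadjusted p under 0.05, 673 genes were higher (5.09%) and 410 lower (3.1%). Libraries did not overlap for 2209 genes that were higher in both Dhet libraries (16.7%) and for 1707 that were lower (12.9%). On whole reads recovered from the deposited values, edgeR (quasi-likelihood) called 2 higher (0.0151%) and 0 lower. DESeq2 on the same reads called 113 higher (0.855%) and 39 lower (0.295%). The number of calls thus depended on the tool, and the genes below are given with their library values.

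Pygl and Nfe2 were among the genes that rose. Pygl (ENSMUSG00000021069.17, chromosome 12, 70190811 to 70231488) encodes a glycogen phosphorylase, which releases glucose units from glycogen. It had 2760 and 2262 normalized counts in Dhet, against 449, 279 and 188 in Csf2_het, so that the lower Dhet library held several times the highest Csf2_het library. The ratio of the means was 8.23 (log2 fold change 3.12, SE 0.38, limma adjusted p = 0.0114). Nfe2 (ENSMUSG00000058794.12, chromosome 15, 103248212 to 103258403) encodes the p45 transcription factor of the megakaryocyte and erythroid lineages. It had 2594 and 2363 in Dhet, against 577, 549 and 307 in Csf2_het, again without overlap (2.43, SE 0.35, limma adjusted p = 0.0456).

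These calls rest on few libraries. Without Dhet replicate 2 all 3 remained, among 3 higher and 82 lower genes. Without Dhet replicate 1, Pygl and Nfe2 did not pass. Nfe2 was also lost, while Pygl passed, with edgeR and without Csf2_het replicate 1, any Csf1r_het library, WT replicate 1 or WT replicate 3. Without Csf2_het replicate 2 or without Csf2_het replicate 3, 0 genes passed in either direction by limma, and the fit of the 5 libraries alone called 0 as well (909 genes at an unadjusted p under 0.05).

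Marker lists of blood cells differed between the groups as well. The summed normalized count of the 9 monocyte genes was 64651 to 71375 in Dhet, against 12930 to 20958 in Csf2_het. That of the 12 neutrophil genes was 684221 to 766877 in Dhet, against 117898 to 198252 in Csf2_het. That of the 9 erythroid genes was 5544470 to 8379070 in Dhet, against 4856730 to 18414400 in Csf2_het, and overlapped. The part of these cells in the rise of Pygl and Nfe2 was not tested.

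**Figure D2:**
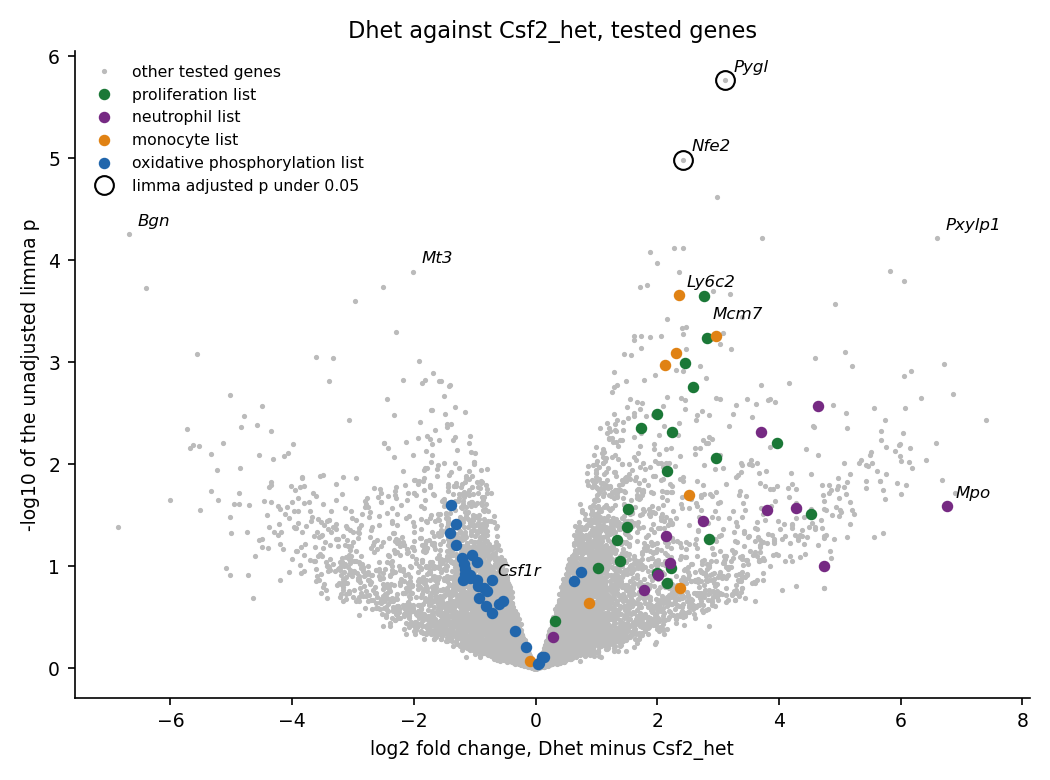
Log2 fold change of Dhet minus Csf2_het against -log10 of the unadjusted limma p for the tested genes reported here, with the proliferation, neutrophil, monocyte and oxidative phosphorylation lists coloured. Rings mark Pygl and Nfe2, which passed, while the coloured groups lie to either side below them.

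A further 13 genes were ranked by the lowest unadjusted p among non-overlapping genes that were higher in Dhet, and these did not pass (limma adjusted p of 0.0798 to 0.129). They were Slfn1, Pira2, Pxylp1, Stx11, Anxa2, Sp100, Clec12a, Lbr, Slco3a1, Kpna2, AB124611, Rnf144a and Map4k1. Slfn1, a Schlafen gene of immune cells, had 815 and 1003 normalized counts in Dhet, against 161, 63.2 and 142 in Csf2_het (2.99, SE 0.47). Anxa2, which encodes the membrane-binding protein annexin A2, had 5517 and 6633 in Dhet, against 1319, 1456 and 1018 in Csf2_het (2.27, SE 0.40). Clec12a, an inhibitory lectin receptor of granulocytes and monocytes, had 2511 and 4509 in Dhet, against 618, 1116 and 877 in Csf2_het (1.99, SE 0.36). The groups did not overlap for any of them, and for Slfn1 and Anxa2 the gap between the groups was wider than the range within either.

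Lbr, the lamin B receptor of the inner nuclear membrane, had 3692 and 5602 in Dhet, against 917, 1354 and 564 in Csf2_het (2.36, SE 0.44). Kpna2, an importin that carries proteins into the nucleus, had 1967 and 3223 in Dhet, against 561, 783 and 796 in Csf2_het (1.84, SE 0.35). Stx11, a syntaxin for granule release by lymphocytes, had 796 and 747 in Dhet, against 177, 110 and 153 in Csf2_het (2.42, SE 0.42). Map4k1, a kinase of blood cells, had 321 and 279 in Dhet, against 28.2, 19.6 and 57.2 in Csf2_het (3.20, SE 0.63). Pxylp1 and Slco3a1 were near 0 in Csf2_het. Pxylp1 had 307 and 809 reads in Dhet, against 2, 24 and 0 reads in Csf2_het, and Slco3a1 had 276 and 551 reads in Dhet, against 2, 37 and 0. Their fold changes therefore depend on the value of 1 added before the logarithm. Pira2 has close copies in the paired receptor cluster, and Slfn1 in the Schlafen cluster, so their reads may have been split between copies.

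Among genes that were lower in Dhet, 15 were ranked by the same rule, and none passed limma (adjusted p of 0.11 to 0.279); at an unadjusted p under 0.05 the direction held 410 genes and DESeq2 called 39. Bgn, which encodes the matrix proteoglycan biglycan, had 3 and 4 reads in the Dhet libraries, against 494, 1245 and 89 reads in Csf2_het. In normalized counts that was 2.25 and 2.30 in Dhet, against 515, 596 and 121 in Csf2_het (log2 fold change -6.68, SE 1.13, limma adjusted p = 0.11). Mt3, a zinc-binding metallothionein, had 1264 and 2540 normalized counts in Dhet, against 9016, 6056 and 6883 in Csf2_het (-2.01, SE 0.37, limma adjusted p = 0.124). Mdk, the heparin-binding growth factor midkine, had 137 and 129 in Dhet, against 681, 868 and 741 in Csf2_het (-2.50, SE 0.48). The 5 libraries separated without overlap for each of the 15 genes, which the ranking required.

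Itgb8, the integrin chain that activates latent TGF-beta, had 75.8 and 214 normalized counts in Dhet, against 1329, 1169 and 657 in Csf2_het (-2.97, SE 0.59). Cdkn1a, the cell cycle inhibitor p21, had 448 and 313 in Dhet, against 1103, 1047 and 1241 in Csf2_het (-1.59, SE 0.40). Bcl2a1a, an anti-apoptotic gene with close copies, had 255 and 227 in Dhet, against 1047, 1019 and 1544 in Csf2_het (-2.29, SE 0.50). Cox8b, a subunit of cytochrome c oxidase, had 1165 and 2192 in Dhet, against 6123, 9255 and 6627 in Csf2_het (-2.17, SE 0.54). The remaining genes, Ly6k, Rgs12, Ms4a7, Dynlrb2, C1qtnf5, Bex2, Socs2 and S100a1, had log2 fold changes from -5.57 (Ly6k) to -1.55 (S100a1).

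**Figure D3:**
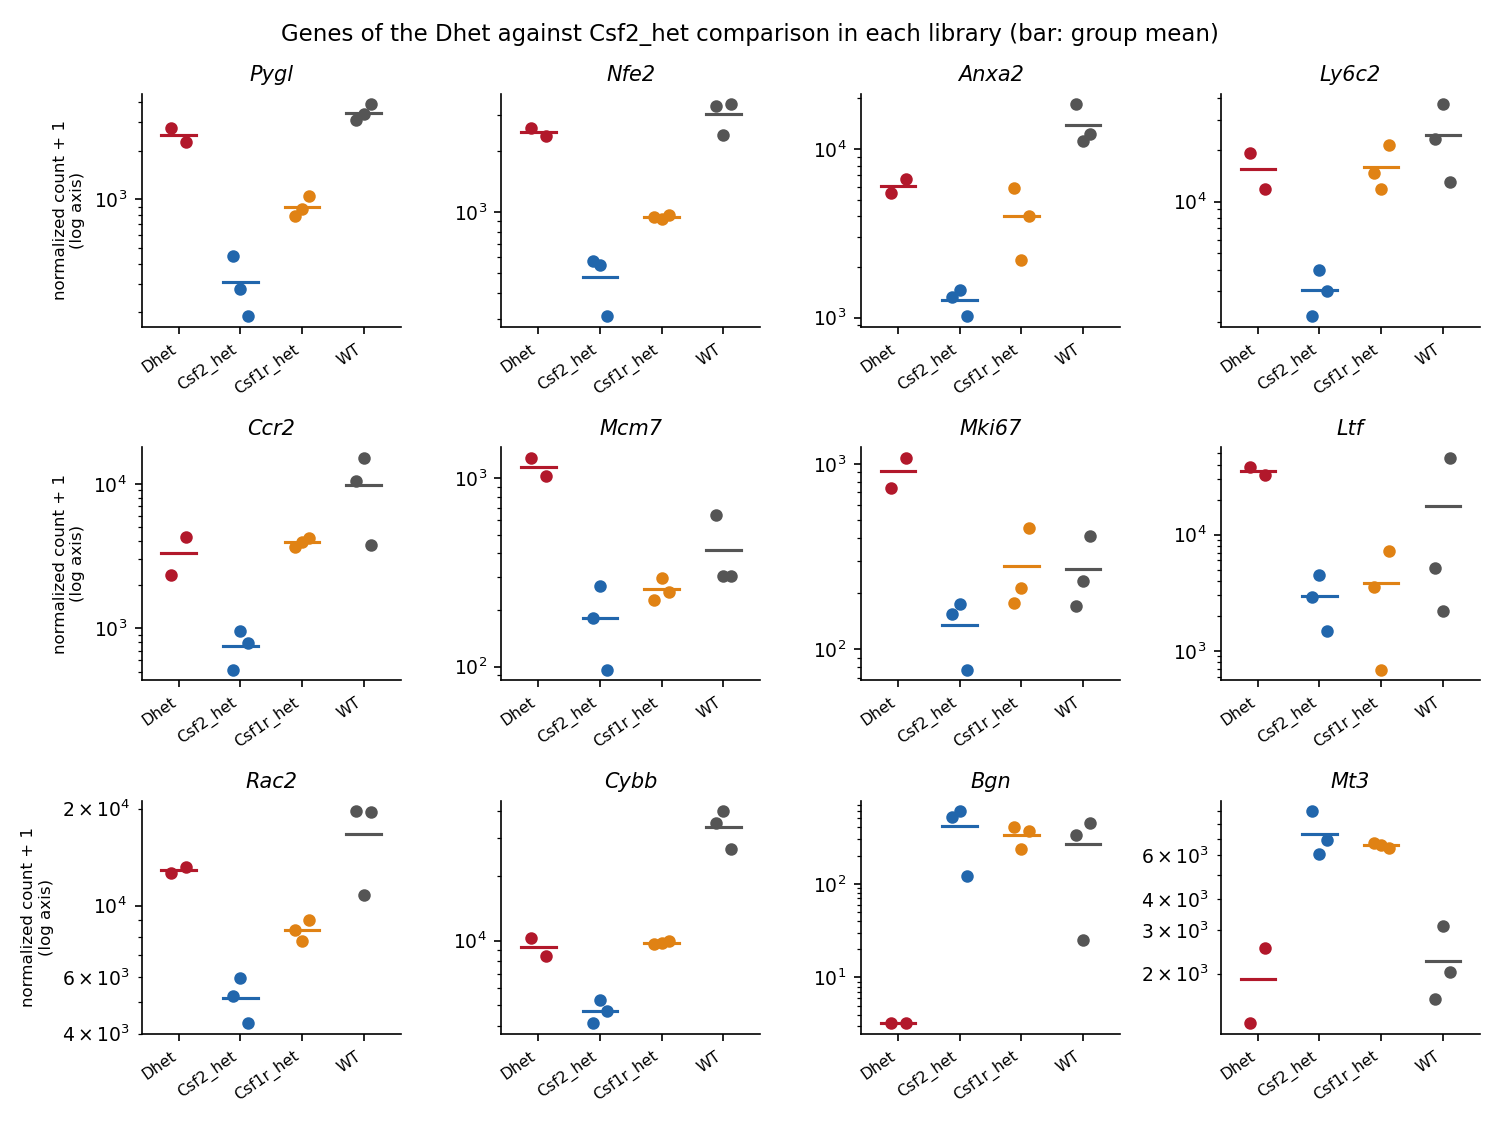
Normalized count plus 1 (log axis) of 12 genes in each library, with a bar at the group mean, for Dhet, Csf2_het, Csf1r_het and WT. For each gene the 2 Dhet libraries lie apart from the 3 Csf2_het libraries, and for Pygl and Nfe2 they lie near the WT libraries.

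Genes of DNA replication and mitosis were higher in Dhet as a group of values, although none passed limma on its own. Of 21 proliferation genes, 21 had a log2 fold change above 0, 20 had both Dhet libraries above all Csf2_het libraries (16.7% of all genes did), and 13 were higher at an unadjusted p under 0.05 (5.09% of all genes). The median log2 fold change was 2.16, against 0.03 over all genes. DESeq2 called 5 of the 21 (0.855% of all genes were called higher), and limma and edgeR called 0. The neutrophil and monocyte sums given above were higher in the same Dhet libraries, and their part in the difference was not tested.

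Mcm7, a subunit of the replicative helicase, had 1284 and 1022 normalized counts in Dhet, against 181, 267 and 95.4 in Csf2_het (2.77, SE 0.55, limma adjusted p = 0.129). Mcm6, of the same helicase, had 804 and 1023 in Dhet, against 151, 275 and 106 in Csf2_het (2.46, SE 0.58). Mki67, which encodes the proliferation marker Ki-67, had 743 and 1076 in Dhet, against 153, 173 and 76.3 in Csf2_het (2.81, SE 0.62, limma adjusted p = 0.199). For each of these genes the lower Dhet library lay well above the highest Csf2_het library.

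Ccnb1, the mitotic cyclin B1, had 1031 and 1376 normalized counts in Dhet, against 46.9, 162 and 55.9 in Csf2_het (3.96, SE 1.22). Birc5, survivin, had 1147 and 1333 in Dhet, against 205, 223 and 189 in Csf2_het (2.58, SE 0.66). Pcna, the replication clamp, differed less, with 2443 and 2483 in Dhet, against 1490, 2336 and 2188 in Csf2_het (0.32, SE 0.33). Rrm2, a subunit of ribonucleotide reductase, was the exception to the separation, with 465 and 3197 in Dhet, against 169, 510 and 54.5 in Csf2_het. Cdkn1a, described above, was lower in the same Dhet libraries. The median of the list was 1.86 without Dhet replicate 2 and 2.49 without Dhet replicate 1.

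Neutrophil genes showed the largest median of the lists. Their summed normalized count varied widely within the other genotypes, at 53188 to 800578 in WT and 28928 to 459451 in Csf1r_het. The Dhet sums, 684221 to 766877, lay within the WT range. Of 12 genes, 12 had a log2 fold change above 0, 11 were higher without overlap (16.7% of all genes were), 7 were higher at an unadjusted p under 0.05 (5.09%), and the median was 3.23. Limma, edgeR and DESeq2 called 0 of them. Ltf, the secondary granule protein lactoferrin, had 38264 and 32335 normalized counts in Dhet, against 2909, 4503 and 1478 in Csf2_het (3.71, SE 1.09, limma adjusted p = 0.393). Mmp8, neutrophil collagenase, had 8292 and 12946 in Dhet, against 1515, 734 and 64.0 in Csf2_het (4.64, SE 1.25). Ngp, neutrophilic granule protein, had 191304 and 142610 in Dhet, against 27606, 29393 and 18083 in Csf2_het (2.75, SE 1.18).

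Mpo, which encodes the primary granule enzyme myeloperoxidase, had 3630 and 14124 normalized counts in Dhet, against 74.1, 1028 and 2.73 in Csf2_het (6.76, SE 2.68). Elane, which encodes neutrophil elastase of the same granules, had 4869 and 12985 in Dhet, against 136, 1090 and 178 in Csf2_het (4.73, SE 2.66). The Dhet libraries were higher without overlap for both. In WT, Mpo had 1831, 6.79 and 2219 normalized counts and Elane had 892, 66.0 and 3407, and that spread enters the error of the test. The neutrophil median was 3.22 without Dhet replicate 2 and 3.07 without Dhet replicate 1.

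Monocyte genes were higher in Dhet in 8 of 9 cases, with a median log2 fold change of 2.35. That median ranged from 2.17 to 2.57 when each library was left out in turn. Of the 9, 7 were higher without overlap (16.7% of all genes were) and 6 at an unadjusted p under 0.05 (5.09%). Limma called 1 of the 9 (0.0227% of all genes), edgeR called 1 (0.0151%), and DESeq2 called 5 (0.855%). Ly6c2, the surface antigen of inflammatory monocytes, had 19301 and 11839 normalized counts in Dhet, against 2149, 3985 and 3023 in Csf2_het (2.35, SE 0.46, limma adjusted p = 0.129). Ccr2, the chemokine receptor by which monocytes leave the bone marrow, had 2354 and 4307 in Dhet, against 515, 950 and 790 in Csf2_het (2.13, SE 0.51). Chil3, a chitinase-like protein of mouse myeloid cells, had 35970 and 29517 in Dhet, against 5475, 8739 and 5999 in Csf2_het (2.30, SE 0.53). Plac8 had 6621 and 8012 in Dhet, against 2789, 4574 and 4947 in Csf2_het (0.87, SE 0.69), and Itga4 did not separate (-0.09, SE 0.44). For Ly6c2 and Chil3 the gap between the groups was wider than the range within either, for Ccr2 it was narrower than the range within Dhet, and Plac8 did not overlap either.

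The 8 B cell genes measured had a median of 1.21 and 0 below 0, with 0 at an unadjusted p under 0.05. The median was 0.52 without Dhet replicate 2, with 6 of 8 above 0, and 1.90 without Dhet replicate 1. Of 6 border macrophage genes measured, 1 was higher (5.09% of all genes were) and 2 were lower (3.1%) at an unadjusted p under 0.05. F13a1, which monocytes also express, had 1853 and 3428 normalized counts in Dhet, against 302, 643 and 172 in Csf2_het (2.96, SE 0.65). Ms4a7 had 9.76 and 63.8 in Dhet, against 220, 279 and 297 in Csf2_het (-3.32, SE 0.78), and Pf4 had 24.0 and 131 in Dhet, against 390, 144 and 277 in Csf2_het. Choroid plexus genes had a median of -0.86, with 1 of 10 above 0. Ttr, the thyroid hormone carrier of the choroid plexus, had 226138 and 438300 in Dhet, against 900688, 730110 and 1103860 in Csf2_het (-1.51, SE 1.20). The choroid plexus median was -1.58 without Dhet replicate 2 and -0.16 without Dhet replicate 1.

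**Figure D4:**
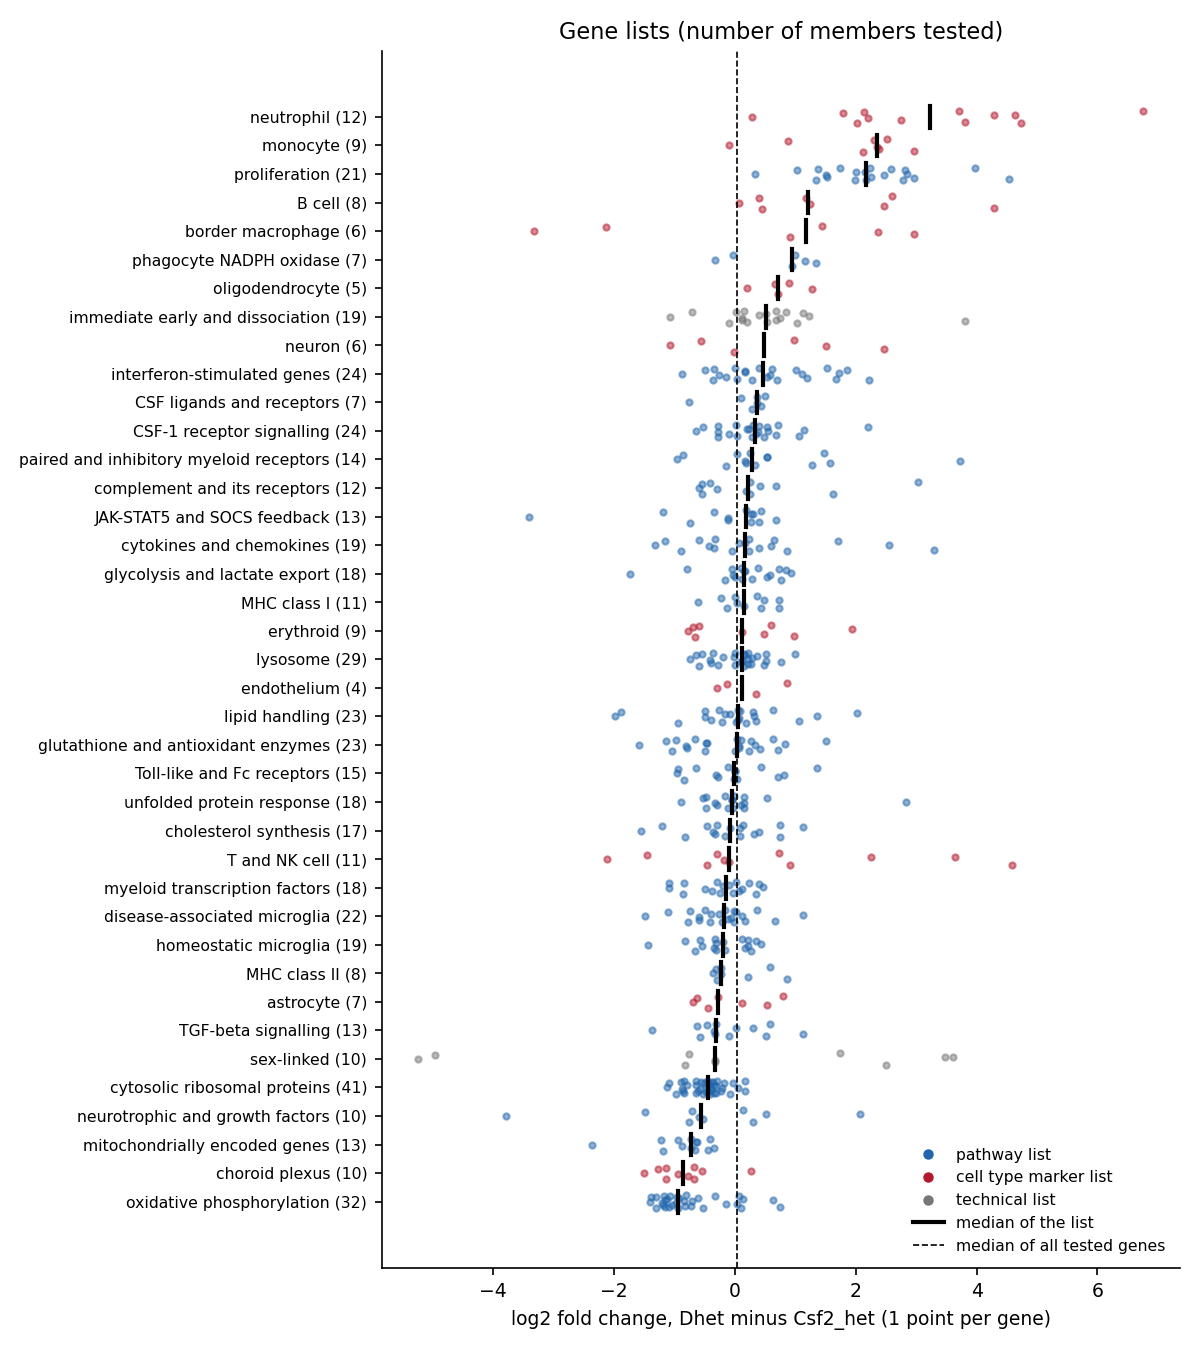
log2 fold change of Dhet minus Csf2_het for the reported genes of 39 lists with at least 4 genes measured, with the list median as a bar and the median of all tested genes as a dashed line. Neutrophil (median 3.23), monocyte (2.35) and proliferation (2.16) genes lie to the right. To the left lie oxidative phosphorylation (-0.94), choroid plexus (-0.86) and mitochondrially encoded genes (-0.73).

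The phagocyte NADPH oxidase makes superoxide and is assembled from a membrane cytochrome and cytosolic subunits. Of its 7 genes, 5 were higher in Dhet at an unadjusted p under 0.05 (5.09% of all genes were), the same number without overlap (16.7%), and the median was 0.95. Limma and edgeR called 0 of the 7, and DESeq2 called 1 (0.855% of all genes were called higher). Rac2, the regulatory GTPase, had 12662 and 13182 normalized counts in Dhet, against 5220, 5970 and 4310 in Csf2_het (1.33, SE 0.34, limma adjusted p = 0.284). Cybb, the catalytic subunit gp91phox, had 10235 and 8518 in Dhet, against 4136, 5317 and 4712 in Csf2_het (0.99, SE 0.31). Ncf1 (1.16, SE 0.40) and Ncf4 (0.95, SE 0.39), which encode cytosolic subunits, were of similar size. The libraries overlapped for the other membrane subunit, Cyba (-0.33, SE 0.57), and for the GTPase Rac1 (-0.03, SE 0.35). The list median was 1.02 without Dhet replicate 2 and 0.86 without Dhet replicate 1. The neutrophil and monocyte sums given above moved with these genes, and their part in the difference was not tested.

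Respiratory chain genes lay on the other side. Of 32 nuclear genes of oxidative phosphorylation, 6 had a log2 fold change above 0, and 23 had both Dhet libraries below all Csf2_het libraries (12.9% of all genes did). The median was -0.94, and 3 were lower at an unadjusted p under 0.05 (3.1% of all genes were). Cox8a had 11026 and 9093 normalized counts in Dhet, against 26203, 21420 and 32015 in Csf2_het (-1.39, SE 0.55, limma adjusted p = 0.533). Atp5g1, which encodes a copy of the c subunit of ATP synthase, had 6605 and 10592 in Dhet, against 18001, 17540 and 28131 in Csf2_het (-1.31, SE 0.57). The median was -0.999 without Dhet replicate 2 and -0.765 without Dhet replicate 1. In WT these genes spread widely, with 10827, 43716 and 9671 for Cox8a. Without WT replicate 2, 23 of the 32 were lower at an unadjusted p under 0.05, as were 708 of all 13223 genes. Without Csf2_het replicate 1 or without Csf2_het replicate 3, 0 of the 32 were. Choroid plexus markers were also lower in the Dhet libraries, with a summed normalized count of 288850 to 651525, against 940691 to 1224130 in Csf2_het. Their part in the difference was not tested.

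The 13 mitochondrially encoded genes had a median of -0.73 and 0 above 0, but the libraries overlapped for all 13. Their median was -0.02 without Dhet replicate 2 and -1.56 without Dhet replicate 1, and it was -0.39 without Csf2_het replicate 1 and -1.24 without Csf2_het replicate 2. The 41 cytosolic ribosomal protein genes had a median of -0.45, with 3 above 0 and 0 at an unadjusted p under 0.05 in either direction. It was -0.68 without Dhet replicate 1, -0.28 without Dhet replicate 2 and -0.25 without Csf2_het replicate 3. Haemoglobin took a smaller share in Dhet than in Csf2_het replicates 1 and 3 and a larger one than in Csf2_het replicate 2, and its part in these differences was not tested.

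Genes of microglial identity differed little in their median, but their summed normalized count was lower in Dhet without overlap. The sum of the 19 homeostatic genes was 909619 to 1268280 in Dhet, against 1318630 to 1803250 in Csf2_het. As a share of each library's normalized counts it was 3.996% and 3.736% in Dhet, against 3.541%, 5.188% and 3.955% in Csf2_het, and overlapped. Without overlap, 1 of the 19 genes was higher (16.7% of all genes were) and 2 were lower (12.9%). Of the 19, 7 had a log2 fold change above 0, and the median was -0.20. At an unadjusted p under 0.05, 1 was lower (3.1% of all genes were) and 0 were higher (5.09%). The lower gene was Ltc4s, leukotriene C4 synthase, with 2811 and 1971 normalized counts in Dhet, against 4994, 4660 and 11203 in Csf2_het (-1.44, SE 0.52). Cx3cr1, the fractalkine receptor, had 34506 and 24620 in Dhet, against 32012, 60433 and 71688 in Csf2_het (-0.83, SE 0.50), and the groups overlapped. Sall1, the transcription factor that marks microglia among macrophages, had 3068 and 1706 in Dhet, against 3488, 3941 and 5250 in Csf2_het (-0.86, SE 0.43), without overlap. The homeostatic median turned to 0.09 without Dhet replicate 2 and was -0.40 without Dhet replicate 1.

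Disease-associated microglial genes had a median of -0.19, with 6 of 22 above 0. Lgals3, galectin-3, had 7171 and 6748 normalized counts in Dhet, against 2642, 3233 and 3747 in Csf2_het (1.13, SE 0.39, limma adjusted p = 0.491). Apoe, the apolipoprotein of this state, had 79403 and 61349 in Dhet, against 82619, 63933 and 65396 in Csf2_het (-0.01, SE 0.52). Trem2, a lipid-sensing receptor, had 19450 and 12258 in Dhet, against 23063, 21832 and 25514 in Csf2_het (-0.60, SE 0.36). Thus Lgals3 was higher and Trem2 lower without overlap, while Apoe overlapped. The list median was 0.15 without Dhet replicate 2 and -0.52 without Dhet replicate 1.

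Immune sensing genes divided. Of 24 interferon-stimulated genes, 17 had a log2 fold change above 0, and the median was 0.46. At an unadjusted p under 0.05, 3 were higher (5.09% of all genes were) and 1 was lower (3.1%). Ifit2, an interferon-induced RNA-binding protein, had 571 and 388 normalized counts in Dhet, against 82.4, 76.6 and 159 in Csf2_het (2.22, SE 0.69). Irf7, a transcription factor of the interferon response, had 824 and 837 in Dhet, against 301, 313 and 251 in Csf2_het (1.53, SE 0.67). Bst2, tetherin, had 2727 and 1540 in Dhet, against 3561, 3271 and 4586 in Csf2_het (-0.88, SE 0.38). The median was 0.77 without Dhet replicate 2, 0.22 without Dhet replicate 1 and 0.23 without Csf2_het replicate 1.

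The 14 paired and inhibitory myeloid receptors had a median of 0.29. At an unadjusted p under 0.05, 4 were higher (5.09% of all genes were) and 1 was lower (3.1%). Pirb, an inhibitory receptor for MHC class I molecules, had 1446 and 2176 normalized counts in Dhet, against 510, 651 and 631 in Csf2_het (1.58, SE 0.37, limma adjusted p = 0.229). Among 12 complement genes the median was 0.21, and it turned to -0.52 without Dhet replicate 1, -0.13 without Csf2_het replicate 2, -0.06 without Csf2_het replicate 3 or with DESeq2, and -0.10 with edgeR. Cfp, properdin, had 1327 and 1696 in Dhet, against 211, 302 and 95.4 in Csf2_het (3.03, SE 0.68), and C3, the central complement component, had 1384 and 621 in Dhet, against 297, 417 and 222 in Csf2_het (1.62, SE 0.48). Fcgr4, an activating IgG receptor, had 990 and 1061 in Dhet, against 1810, 2042 and 2056 in Csf2_het (-0.94, SE 0.34).

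Antioxidant genes were split in sign, with 12 of 23 above 0 and a median of 0.03. At an unadjusted p under 0.05, 1 was higher (5.09% of all genes were) and 4 were lower (3.1%). Without overlap, 4 were higher (16.7% of all genes were) and 10 were lower (12.9%). Gsr, glutathione reductase, had 3013 and 6843 normalized counts in Dhet, against 1840, 1844 and 1206 in Csf2_het (1.5, SE 0.41, limma adjusted p = 0.339). Gsta4, which conjugates glutathione to lipid peroxidation products, had 541 and 1402 in Dhet, against 2841, 2907 and 2194 in Csf2_het (-1.59, SE 0.48, limma adjusted p = 0.41). Lipid handling (median 0.05), lysosome (0.12), glycolysis (0.15), cholesterol synthesis (-0.09) and MHC class II (-0.23) lists lay near the median of all genes. Within them Fabp4, a fatty acid carrier, had 62.3 and 108 in Dhet, against 257, 281 and 497 in Csf2_het (-1.99, SE 0.75). Hk2, a hexokinase, had 1422 and 1178 in Dhet, against 2981, 3360 and 7894 in Csf2_het (-1.73, SE 0.73).

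The same loss of a Csf1r copy was then read on both backgrounds. Dhet against Csf2_het and Csf1r_het against WT share no library, although all 11 were normalized together. Across the 13223 genes the 2 sets of log2 fold changes had a Pearson correlation of -0.257 and a Spearman correlation of -0.319, and 37% of genes had the same sign. Genes are not independent replicates, and the points share normalization and the fit, so this is a description. The difference between the effects was tested gene by gene as the interaction. It passed for 159 genes with a higher effect on the Csf2+/- background (1.2% of genes) and for 85 with a lower one (0.643%; limma, adjusted p under 0.05).

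All 15 named genes that were higher in Dhet against Csf2_het had a log2 fold change below 0 in Csf1r_het against WT, and the interaction passed for all 15. They were chosen by the Dhet and Csf2_het libraries, which also enter the interaction, so the count of 15 is no independent evidence. The Csf1r_het and WT libraries entered the choice through the shared error estimate and the filters on the mean. Pygl had 784, 867 and 1051 normalized counts in Csf1r_het, against 3080, 3362 and 3867 in WT, a log2 fold change of -1.94 (limma adjusted p = 0.0233). Nfe2 had 946, 923 and 963 in Csf1r_het, against 3293, 2381 and 3369 in WT (-1.66, limma adjusted p = 0.0309). Both genes fell in Csf1r_het against WT and rose in Dhet against Csf2_het.

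The interaction, in log2 units, was 5.05 for Pygl (SE 0.51, limma adjusted p = 0.00136) and 4.08 for Nfe2 (SE 0.47, limma adjusted p = 0.00362). The Dhet libraries overlapped the WT libraries for Nfe2, while the Pygl values of Dhet lay just below those of WT.

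Of the 15 genes that were lower, 13 had a log2 fold change above 0 in Csf1r_het against WT, and the interaction passed for 10. Mt3 had 6698, 6609 and 6391 in Csf1r_het, against 1583, 3108 and 2029 in WT (1.61, limma adjusted p = 0.039), and its interaction was -3.62 (SE 0.50, limma adjusted p = 0.00851). Bex2 had 1127, 1003 and 796 in Csf1r_het, against 188, 272 and 275 in WT (1.99, limma adjusted p = 0.0371), with an interaction of -3.81 (SE 0.61, limma adjusted p = 0.0105) that was lost without Dhet replicate 1. The 2 exceptions in sign were Ly6k (-0.48) and Cdkn1a (-0.14), and neither interaction passed. Cdkn1a had 1273, 1240 and 1085 in Csf1r_het, against 1017, 2252 and 995 in WT, and both Dhet libraries, at 448 and 313, lay below all 9 other libraries.

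Monocyte and NADPH oxidase genes followed the first pattern. The interactions counted in these lists were higher on the Csf2+/- background, as they were for 1.2% of all genes. The monocyte median was 2.35 for Dhet against Csf2_het and -1.38 for Csf1r_het against WT, and the interaction passed for 5 of 9 genes, among them Ly6c2, F13a1, Chil3 and Ccr2. When each of the 11 libraries was left out in turn, the interaction was lost in 9 fits for Ccr2 (limma adjusted p of up to 0.104), in 8 for Ly6c2 (up to 0.162), in 4 for Chil3 (up to 0.111) and in 4 for F13a1 (up to 0.0574). Chil3 had an interaction of 3.68 (SE 0.71, limma adjusted p = 0.0245). The NADPH oxidase medians were 0.95 and -0.94, and the interaction passed for 3 of 7 genes, among them Rac2 and Cybb. With a library left out it was lost in 8 of 11 fits for Rac2 (limma adjusted p of up to 0.107) and in 1 for Cybb (0.0509). Cybb had 9615, 9720 and 9996 normalized counts in Csf1r_het, against 34969, 39791 and 26533 in WT, and an interaction of 2.76 (SE 0.41, limma adjusted p = 0.00874). Its Dhet level of 10235 and 8518 was near that of Csf1r_het and well below WT, unlike that of Nfe2.

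The proliferation genes differed from these, and the share of all genes with a higher interaction, 1.2%, belongs beside their count too. Their median was 2.16 for Dhet against Csf2_het and -0.33 for Csf1r_het against WT, and the interaction passed for 1 of 21, Mcm7 (3.38, SE 0.74, limma adjusted p = 0.0358), whose interaction was lost in 8 of the 11 fits that leave out a library (limma adjusted p of up to 0.145). Mki67 had 176, 212 and 447 normalized counts in Csf1r_het, against 170, 231 and 406 in WT, and both Dhet libraries lay above all 9 other libraries. For Mki67 the interaction did not pass (2.79, SE 0.83, limma adjusted p = 0.106). The neutrophil interaction passed for 0 of 12 genes by limma, and the interaction of Ltf was 5.34 (limma adjusted p = 0.0852). The oxidative phosphorylation median was -0.94 for Dhet against Csf2_het and 0.46 for Csf1r_het against WT, and the interaction passed for 0 of 32 genes.

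**Figure D5:**
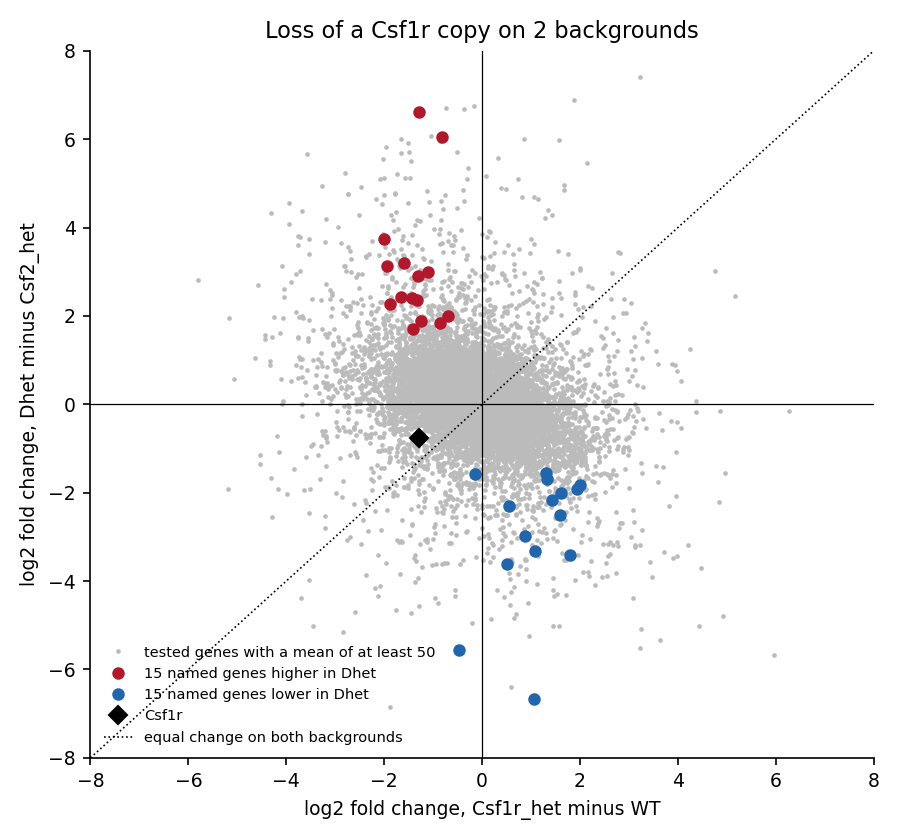
Log2 fold change of Dhet minus Csf2_het (vertical) against that of Csf1r_het minus WT (horizontal) for the genes reported here with a mean of at least 50, with the dotted line at equal effects. The 15 named higher genes all lie left of 0 and 13 of the 15 lower genes right of 0, while Csf1r lies below 0 on both axes.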

How the data were processed

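RNA of Tmem119-positive cerebral microglia was sequenced in 11 libraries of 4 genotypes. The authors used kallisto 0.43.1, DESeq2 (version not given in the sources used here) and build mm10, per the submitters' processing notes. The deposited values are a normalized signal, gene counts divided by 1 size factor per library, and 100% of values were whole numbers of reads within 0.02 when multiplied back. Whether counting used strand is not given. Of 14739 genes, 1516 with a mean under 10 were left out.

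Log2(normalized count + 1) was fitted with limma 3.58.1 (R 4.3.3, trended prior, 4 group means, 7 residual and 5.9 prior degrees of freedom), with Benjamini-Hochberg adjustment over all 13223 genes at 0.05. The fold changes of low genes are understated on this scale. The fit was tested on simulated data. Recovered reads were also tested with edgeR 4.0.16 and DESeq2 1.42.0, beside other pseudocounts and filters, a replicate block and the removal of each library. Named genes were the CSF family, called genes, then the lowest p among non-overlapping genes with a mean of at least 50, to 15 per direction without predicted or haemoglobin genes, and set members of each of 40 lists. The comparison, its gene lists and the motifs were chosen with earlier results of these data known. A few genes stay in every fit and count but are not reported by name here.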

Additional observations from a re-analysis of the deposited data

Results flagged for a closer look

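The effect of losing a Csf1r copy differed between the Csf2+/- and the Csf2 wild-type background for 42 of the genes described, 29 with a higher and 13 with a lower effect on the Csf2+/- background (limma interaction, adjusted p under 0.05). Values are differences of log2 fold changes, Dhet minus Csf2_het less Csf1r_het minus WT. Among the genes that rose in Dhet these were Pygl (5.055) and Nfe2 (4.083). Among the other genes ranked as higher in Dhet they were Anxa2 (4.144), Stx11 (3.844), Slfn1 (4.094), Pira2 (5.731), Pxylp1 (7.893), Sp100 (3.129), Clec12a (2.695), Lbr (3.686), Slco3a1 (6.876), Kpna2 (2.702), AB124611 (3.116), Rnf144a (4.21) and Map4k1 (4.795). Of the monocyte and NADPH oxidase genes they were Ly6c2 (2.879), Ccr2 (3.229), Chil3 (3.679), F13a1 (4.934), Rac2 (2.271) and Cybb (2.759). Among the genes ranked as lower they were Bgn (-7.744), Mt3 (-3.617), Mdk (-4.093), Itgb8 (-3.852), Socs2 (-5.193), Dynlrb2 (-3.844), C1qtnf5 (-3.005), Bex2 (-3.815), Cox8b (-3.602) and S100a1 (-2.859). In the other lists the effect was higher for C3 (3.569), Cfp (4.552), Gsr (3.636), Mcm7 (3.383), Pirb (4.202), Ptpn6 (2.29), Slfn2 (2.814) and Tgfbi (3.537) and lower for Cd63 (-2.158), Gsta4 (-3.991) and Manf (-1.905). The genes ranked on Dhet against Csf2_het were chosen with libraries that also enter this difference. Pira2 with Pirb and Slfn1 with Slfn2 belong to clusters of near-identical copies, so their reads may have been split.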

How the results depend on the processing

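The 3 genes that rose in Dhet were 6 with a pseudocount of 5, 113 with DESeq2, and 0 with the 5 libraries alone or with the replicate block (577 at an unadjusted p under 0.05 with the block), and 0 to 4 when a library was left out. The 0 genes that fell were 39 with DESeq2 and 0 to 82 when a library was left out, the 82 without Dhet replicate 2. Dhet and Csf2_het share 2 replicate numbers. Deviations from the group mean had correlations of -0.0361 and 0.0471 between same-numbered libraries. With 2 Dhet libraries these deviations are equal and opposite, so the correlations cannot decide whether the numbers pair the libraries. No interaction of the 42 genes reversed under 18 alternatives, and those of Pygl, Nfe2, Anxa2, Mt3, Stx11 and Pirb passed under all 18, while each of the others was lost under 1 to 12 of them. The log2 fold changes of genes or list medians turned or moved as follows, and the cause was not tested. Il3ra was -0.0024 when centred on the median and -0.17 with the replicate block, Aldoc was -0.00044 with edgeR, and Gad1 was 0.021 with DESeq2. The antioxidant list was -0.076 when centred and -0.089 with edgeR, and the T and NK cell list -0.41 with edgeR and -0.37 with DESeq2. With a library left out, the log2 fold change ranged over Csf1 -0.19 to 1.18, Csf2rb2 -0.81 to 1.55, Il3ra -0.36 to 0.58, Aldoc -0.056 to 1.30, Slc1a2 -1.01 to 0.43, Enpp2 -1.46 to 0.39, Slco1a4 -0.36 to 1.06, Pecam1 -0.87 to 0.28, Zfp36 -0.18 to 1.88, Stat5a -2.64 to 0.24, Acta2 -0.75 to 2.75, Gad1 -0.54 to 0.51, Xist -10.29 to 0.38, Ddx3x -1.02 to 0.37, Cd3d -0.74 to 0.39. The interaction ranged over Csf1 -0.44 to 0.93, Csf2rb2 -0.41 to 1.95. The list median ranged over CSF ligands and receptors 0.079 to 0.38, myeloid transcription factors -0.46 to 0.12, homeostatic microglia -0.40 to 0.087, disease-associated microglia -0.52 to 0.15, phagocyte NADPH oxidase 0.72 to 1.04, glutathione and antioxidant enzymes -0.24 to 0.034, complement and its receptors -0.52 to 0.39, MHC class II -0.27 to 0.027, MHC class I -0.0011 to 0.46, Toll-like and Fc receptors -0.32 to 0.22, TGF-beta signalling -0.60 to 0.17, glycolysis and lactate export -0.034 to 0.44, neurotrophic and growth factors -0.72 to -0.19, sex-linked -0.999 to 0.19, border macrophage -0.74 to 2.43, B cell 0.52 to 1.90, T and NK cell -0.097 to 0.58, choroid plexus -1.58 to -0.16. Depth limits Bgn, Ly6k, Pxylp1 and Slco3a1, which had few reads in a group.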
